A study of Sus scrofa with 63 samples.

Results

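The genes described here are 8 transcription factors of the intestinal epithelium, CDX1, CDX2, HNF4A, HNF4G, GATA4, GATA6, KLF4 and KLF5, measured in the jejunum of pig fetuses late in gestation. They were chosen by name, and their probes are those whose gene name on the array equals the symbol in any letter case. The rule found 20 probes among 60305, for 5 of the 8 genes: 9 probes for KLF4, 5 for HNF4A, 3 for KLF5, 2 for GATA4 and 1 for HNF4G. CDX1, CDX2 and GATA6 are not the gene name of any probe, so CDX1 and CDX2 were not analysed here, and GATA6 is given only through probes named otherwise.

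Total RNA of 63 male fetuses was hybridised, 1 fetus to an array, on a porcine one-colour Agilent array. The dams were Large White (LW) or Meishan (MS) pigs, and because semen of the 2 breeds was pooled for insemination, littermates could have sires of different breeds. The LWLW fetuses (LW sire and LW sow; 9 at day 90 and 9 at day 110 of gestation) and the MSMS fetuses (MS sire and MS sow; 6 and 7) were purebred. The LWMS fetuses (LW sire, MS sow; 9 and 9) and the MSLW fetuses (MS sire, LW sow; 8 and 6) were the reciprocal crosses. No group received a treatment. Litters are not given in the labels, so littermates were treated as independent and the p-values measure the spread between fetuses. Littermates share the breed of their sow and their day of gestation, so p-values for sow and for age can be too small.

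GATA4 and GATA6 are zinc finger factors. GATA4 is known for marking the proximal small intestine, where it maintains the jejunal programme against the ileal one. HNF4A and HNF4G are paralogous nuclear receptors that activate brush border and lipid handling genes in enterocytes, the absorptive cells of the villus. Of the Krüppel-like factors, KLF4 is known from differentiated and goblet cells and KLF5 from dividing crypt cells. CDX1 and CDX2 are homeobox factors that set intestinal identity.

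The probes are oligonucleotides of 60 bases, and what they cover decides what can be compared. For HNF4A, 3 probes match the same porcine transcript record, starting at bases 409, 1236 and 1370 of it. They are shown because they did not give the same breed difference. The letters of the first code for part of the DNA-binding domain, those of the second for the ligand-binding domain and those of the third, the main probe, for the stretch behind it.
A_72_P704336: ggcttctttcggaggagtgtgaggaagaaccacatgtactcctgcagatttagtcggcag
A_72_P449980: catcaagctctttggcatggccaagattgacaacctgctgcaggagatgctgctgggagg
A_72_P440506: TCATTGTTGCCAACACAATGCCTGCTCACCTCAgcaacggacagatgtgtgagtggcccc
O11922: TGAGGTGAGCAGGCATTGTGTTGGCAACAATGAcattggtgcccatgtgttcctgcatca
The last line is an HNF4A probe of opposite strand. Its first 33 bases, in capitals, are the reverse complement of the 33 capitals of the main probe. It was well above background on 7 of 63 arrays, against 63 of 63 for the main probe, and was the only member probe that failed the filter on dim probes.

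For KLF4, the probe below ends in the stop codon, in capitals, and stands for 3 probes over the last zinc fingers, 2 of which have 1 sequence. Another 5 KLF4 probes start at bases 2472 to 2854 of another sequence record, and 1 is a dimmer probe. For KLF5, 1 probe lies ahead of the zinc fingers and the other 2 have 1 sequence, within them.
KLF4 A_72_P303164: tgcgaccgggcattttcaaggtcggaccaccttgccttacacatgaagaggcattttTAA
KLF5 A_72_P612602: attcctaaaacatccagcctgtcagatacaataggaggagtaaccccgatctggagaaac
KLF5 A_72_P010081: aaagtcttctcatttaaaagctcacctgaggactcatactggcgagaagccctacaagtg

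Levels are log2 of the processed signal minus the 75th percentile of the array. A gene counts by its main probe, the tested probe of the highest mean level, and levels of different probes are not set against each other. Between 51.2% and 87.6% of the probes were well above background on an array. The 7 epithelial markers tested were well above background on every array at both ages. The array of MSMS day 110 fetus 632 correlated least with the rest of its group (r = 0.916 over probes, against 0.945 or more for every other array), so calls and counts that changed without it, and values of the members that moved most, are also given without it.

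Over the 5 genes measured, HNF4G rose with age, GATA4 was lower and HNF4A higher in fetuses of MS sows, and KLF4 and KLF5 passed no test by their main probes. Age called 1 of 5 genes (limma, adjusted p at most 0.01 and a log2 difference of at least 0.5), and 13.8% of all tested probes. The breed of the sow, averaged over both ages, called 2 of 5 (adjusted p under 0.05), and 16% of all probes. The breed of the sire called 1 of 5, and 6.95% of all probes. The test for any difference among the 8 groups called 3 of 5 (GATA4, HNF4A and HNF4G; adjusted p under 0.01), and 28.7% of all probes. With 5 genes these counts set nothing apart from the background.

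**Figure D1:**
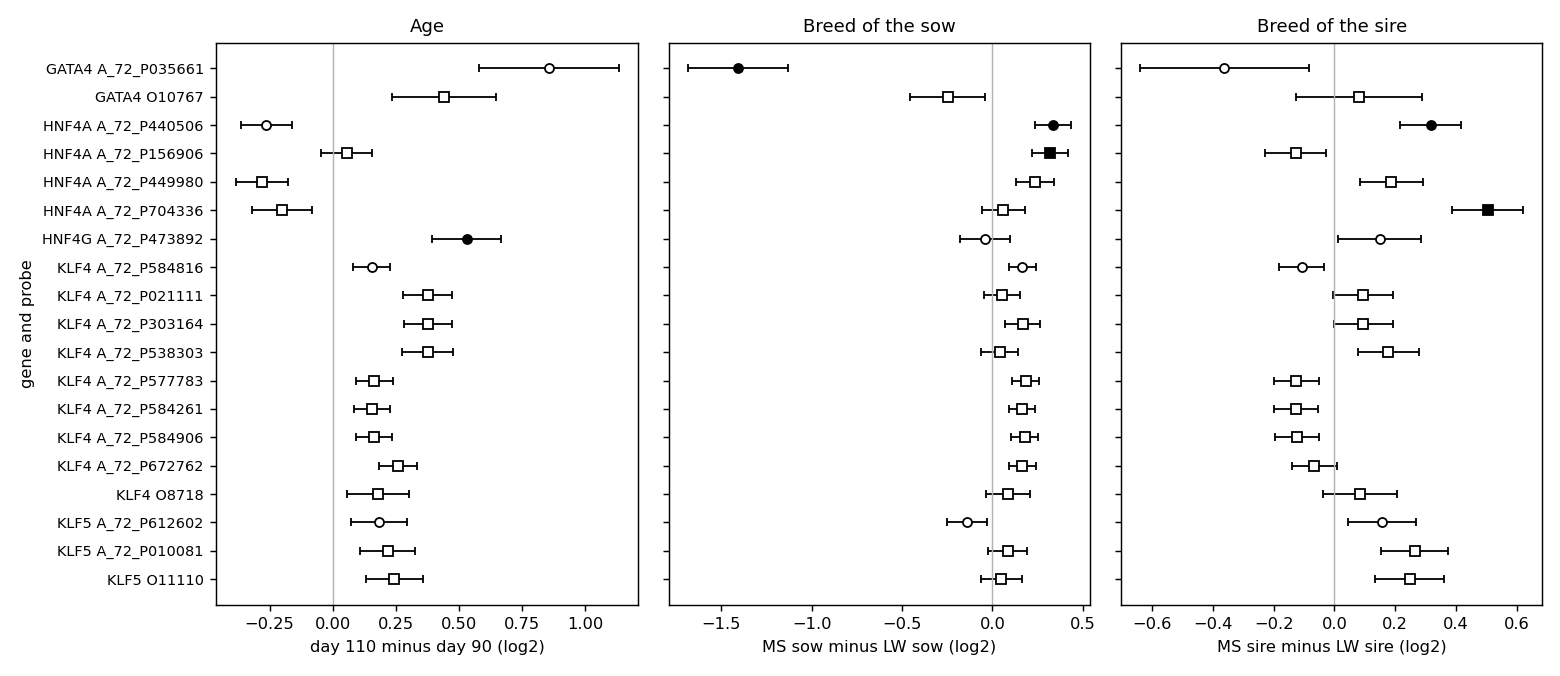
Differences of the 19 tested probes on the log2 scale with their standard errors, for age (day 110 minus day 90), breed of the sow (MS minus LW) and breed of the sire (MS minus LW). Circles are main probes, squares are other probes of the gene, and filled symbols passed the test. GATA4 has the widest difference by breed of the sow, with -1.41 on its main probe and -0.25 on its dim second probe, which is of opposite strand.

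GATA4 differed most between fetuses. At day 90 the LWLW fetuses ranged from -4.02 to -0.01 (median -3.50, n = 9) and at day 110 from -3.51 to -0.53 (median -0.79, n = 9). The MSLW fetuses, also of LW sows, ranged from -4.39 to -0.93 at day 90 (median -3.35, n = 8) and from -3.39 to 0.27 at day 110 (median -1.53, n = 6). In each of these 4 groups a wide gap parted the upper values, a single fetus in MSLW at day 90, from the rest.

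In fetuses of MS sows the values stayed low but for 1 fetus. The LWMS fetuses ranged from -4.39 to -2.29 at day 90 (median -3.93, n = 9) and from -3.69 to -2.81 at day 110 (median -3.05, n = 9). The MSMS fetuses measured ranged from -4.80 to -3.45 at day 90 (median -3.87, n = 5) and from -6.70 to -3.28 at day 110 (median -3.47, n = 7). The lowest of these is fetus 632. The spot of a further MSMS day 90 fetus, 532, carried the scanner software's outlier flag and was left out, but its signal was 0.69, the highest of all 63.

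No value lay between -2.29 and -1.71, and with a limit of -2, chosen after the values were seen, 13 of the 62 measured fetuses were above it. These were 9 of 18 LWLW, 4 of 14 MSLW, 0 of 18 LWMS and 0 of 12 MSMS fetuses. By age they were 3 of 9 LWLW and 1 of 8 MSLW fetuses at day 90, and 6 of 9 and 3 of 6 at day 110. They sat on 7 of the 8 slides, and their share of probes well above background, 51.2% to 80.4%, overlapped that of the others, 56.3% to 87.6%. With the flagged spot kept, fetus 532 was also above the limit, making 14 of 63 and 1 of the 31 fetuses of MS sows.

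A second spot elsewhere on the array, under another name, has the same 60 bases as the main GATA4 probe. Over the 61 arrays with both values they correlated with r = 0.966 and, once each was centred, lay 0.22 log2 apart on average. The copy read -0.33 in fetus 532 and was not flagged there, so that both spots read high in this fetus. The arrays of fetus 532 and of MSLW day 110 fetus 851, both on slide 2, had 1417 and 3971 flagged spots. Every other array had at most 175. With flagged spots kept, these arrays gave the highest main probe readings of all, 0.69 and 0.31, and the copy was itself flagged in fetus 851. Whether their GATA4 readings were affected was not tested. The dim second GATA4 probe is of opposite strand over 46 bases of the main probe, and correlated with it less (r = 0.61, 62 arrays).

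**Figure D2:**
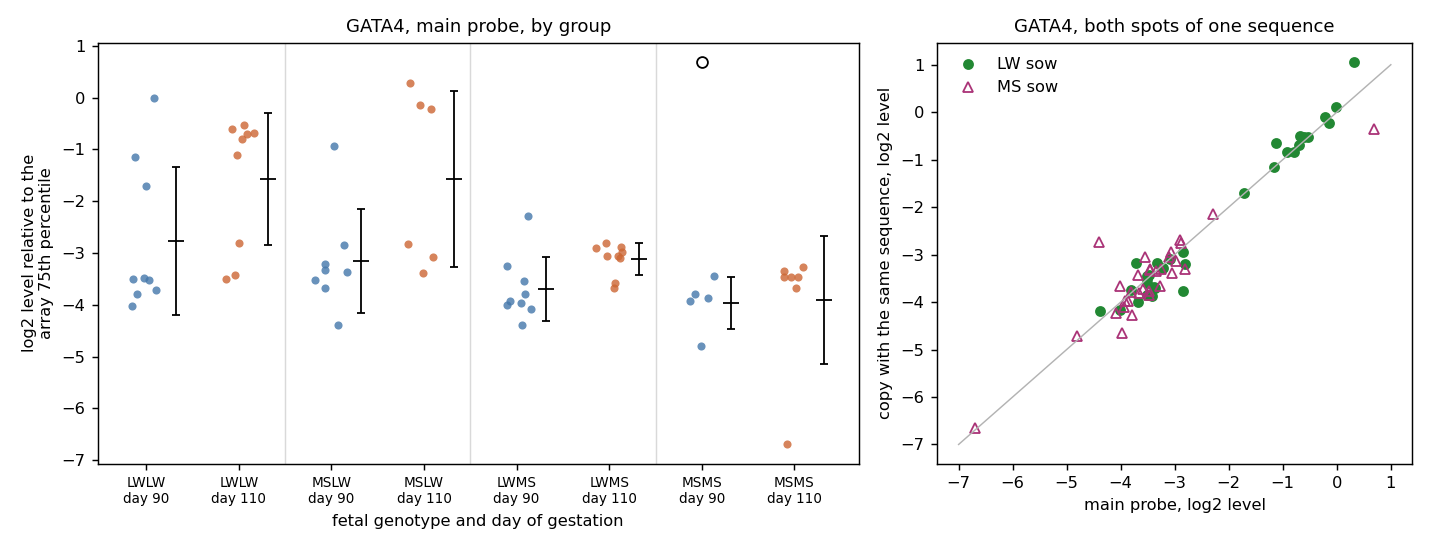
Left, GATA4 log2 level of each fetus on the main probe by genotype and day, with group mean and SD; the open circle is the flagged spot of MSMS day 90 fetus 532. Right, the same probe against the copy of equal sequence, flagged spots included, with fetuses of LW sows as filled circles and of MS sows as open triangles; 13 fetuses of LW sows and 1 of an MS sow lie above -2 on the main probe.

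Averaged over both ages, GATA4 was lower in fetuses of MS sows than of LW sows by a log2 difference of -1.41 (SE 0.28, limma adjusted p = 0.000184), 2.65-fold. With the flagged spot kept the difference was -1.22 (adjusted p = 0.00384), on the copy -1.12 (adjusted p = 0.00815) and on the dim second probe -0.25 (adjusted p = 0.431). Within slides, with flagged spots left out, the difference was below 0 on 8 of 8, from -2.07 to -0.48. With them kept, slide 2 gave -1.06 in place of -2.07, and every slide stayed below 0. At day 110 the model's difference was -1.95 (adjusted p = 0.000464), a comparison that called 9.97% of all probes. A two-sided permutation test at day 110 gave p = 0.00036, adjusted over both ages, for means of -3.47 in 16 fetuses of MS sows and -1.57 in 15 of LW sows. All fetuses of a litter share their sow's breed and their day of gestation, and litters are not in the labels. Tests over fetuses, this one and the model's, can therefore give too small a p for the sow, as they can for age. At day 90, where 5.65% of all probes were called, the model gave -0.87 (adjusted p = 0.211). The permutation test there gave p = 0.018 for a difference of -0.84, and p = 0.234 for -0.54 once fetus 532 was kept. The difference in age change by breed of the sow was -1.08 (SE 0.56, adjusted p = 0.481), so the ages are not shown to differ.

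Between purebreds, GATA4 was lower in MSMS than in LWLW fetuses at day 110 by -2.34 (SE 0.54, adjusted p = 0.00196). It was the 1 gene of 5 called there, where 5% of all probes were. Without fetus 632 the difference was -1.88 with adjusted p = 0.0125, past the limit of 0.01. At day 90 no gene of 5 was called by its main probe, against 3.58% of all probes, and GATA4 differed by -1.20 (SE 0.60, adjusted p = 0.274). With the flagged spot of fetus 532 kept this was -0.43 (adjusted p = 0.806), and on the authors' normalised values -0.22 (adjusted p = 0.879). The breed of the sire gave -0.36 (SE 0.28, adjusted p = 0.528). With age GATA4 was 0.86 higher (SE 0.28) with adjusted p = 0.0109, just outside the limit. It passed under 5 other settings, among them without fetus 632 (0.97, adjusted p = 0.00212) and with normexp and quantile normalisation (0.63, adjusted p = 0.00477). With fetus 532 kept it was 0.66 (adjusted p = 0.081). The group means ran from -1.57 in both day 110 groups of LW sows to -3.97 in MSMS at day 90, and of the 7 steps in this order only that from LWLW at day 110 to LWLW at day 90 (1.196) exceeded the residual SD of 1.097.

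GATA6 was read by 2 probes outside the rule, 1 of them named with a hyphen. On that one, group means lay between 1.17 and 1.66. It was lower at day 110 by -0.24 (SE 0.068, adjusted p = 0.00441), under the size limit, and the other probe gave -0.25. The breed of the sow gave -0.01 (adjusted p = 0.951). In bulk tissue, fewer cells of a type and less RNA per cell cannot be told apart.

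HNF4A was higher with an MS parent on its main probe, on either side. On the main probe, LWLW fetuses at day 90 ranged from -3.01 to -1.51 (median -2.31) and at day 110 from -3.57 to -1.98 (median -2.51). MSMS fetuses ranged from -1.82 to -1.13 at day 90 (median -1.66) and from -2.63 to -1.44 at day 110 (median -1.99). In the crosses the day 90 medians were -1.65 in LWMS (-2.41 to -1.52) and -2.05 in MSLW (-2.22 to -1.55). At day 110 the medians were -2.19 in LWMS (-2.59 to -1.56) and -2.02 in MSLW (-2.52 to -1.28). The 2 purebred groups overlapped at either age, and no step in the order of the 8 means, -1.58 in MSMS at day 90 to -2.63 in LWLW at day 110, exceeded the residual SD of 0.39.

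Fetuses of MS sows were higher in HNF4A by 0.33 (SE 0.10, adjusted p = 0.0164), 1.26-fold, and fetuses of MS sires by 0.32 (SE 0.10, adjusted p = 0.041). The call for the sire was lost with slide as a block (0.30, adjusted p = 0.0564) and under 4 other settings. MSMS exceeded LWLW fetuses by 0.65 averaged over the ages (SE 0.14, adjusted p = 0.000576), in a comparison that called 8.03% of all probes, while neither age alone passed (0.69, adjusted p = 0.0297; 0.61, adjusted p = 0.035). Day 110 was lower by -0.26 (SE 0.10, adjusted p = 0.0314), not a call.

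The HNF4A probes disagreed by parent. The probe over the DNA-binding domain gave 0.50 for the sire (SE 0.12, adjusted p = 0.00288) and 0.06 for the sow (adjusted p = 0.765). That sow value averages 0.51 at day 90 and -0.39 at day 110, neither called, and the difference in age change by sow, -0.90, was no call. On this probe MSMS fetuses exceeded LWLW by 0.99 at day 90 (adjusted p = 0.0047), a call, and by 0.14 at day 110 (adjusted p = 0.785). The difference in age change between the purebreds was -0.86 on it. None of the 4 tested HNF4A probes under the rule was called for that difference, so the ages are not shown to differ. The probe over the ligand-binding domain gave 0.19 for the sire and 0.24 for the sow, neither called, though for the sow at day 90 it passed (0.47, adjusted p = 0.0424). The probe A_72_P156906, on a sequence cluster named HNF4A, gave 0.32 for the sow (adjusted p = 0.0217) and -0.13 for the sire. Over arrays the main probe correlated with these 3 with r = 0.36, 0.69 and 0.27, and with a probe outside the rule named by the porcine transcript with r = 0.85. That probe gave 0.42 for the sow (adjusted p = 0.00195) and 0.23 for the sire (adjusted p = 0.172). All 5 had a positive difference between the purebreds at both ages.

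HNF4G, read by a single probe, rose by 0.53 from day 90 to day 110 (SE 0.14, adjusted p = 0.00143), 1.44-fold. Called probes that rose made up 6.07% of all. In LWLW fetuses it went from a median of -0.96 (-1.19 to -0.18) to -0.21 (-1.19 to 0.34), and in LWMS from -0.59 (-1.12 to 0.03) to 0.26 (-1.19 to 0.75). In MSLW it went from -0.41 (-1.28 to 0.28) to 0.42 (0.04 to 0.64), and in MSMS from -0.51 (-0.93 to -0.10) to 0.20 (-2.60 to 0.35). Every group overlapped between the ages, and every median was higher at day 110.

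The rise held on 8 of 8 slides, from 0.15 to 1.03. Without fetus 632, the lowest of all at -2.60, it was 0.62 (adjusted p = 1.21e-05). On the authors' normalised values it was 0.499 and with normexp and quantile normalisation 0.491, with adjusted p of 0.000901 and 0.000578, both just under the size limit of 0.5. Within genotypes it was 0.63 in LWLW, 0.63 in LWMS, 0.78 in MSLW and 0.08 in MSMS, none called. The MSMS value rested on fetus 632 and was 0.44 without it (adjusted p = 0.333). No member was called for age within a genotype, where 4.76% of all probes were called in LWLW, 3.12% in MSMS, 9.86% in LWMS and 5.43% in MSLW. Neither the sow (-0.04, adjusted p = 0.871) nor the sire (0.15, adjusted p = 0.622) gave a difference in HNF4G, and no step in the order of its means exceeded the residual SD of 0.55.

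**Figure D3:**
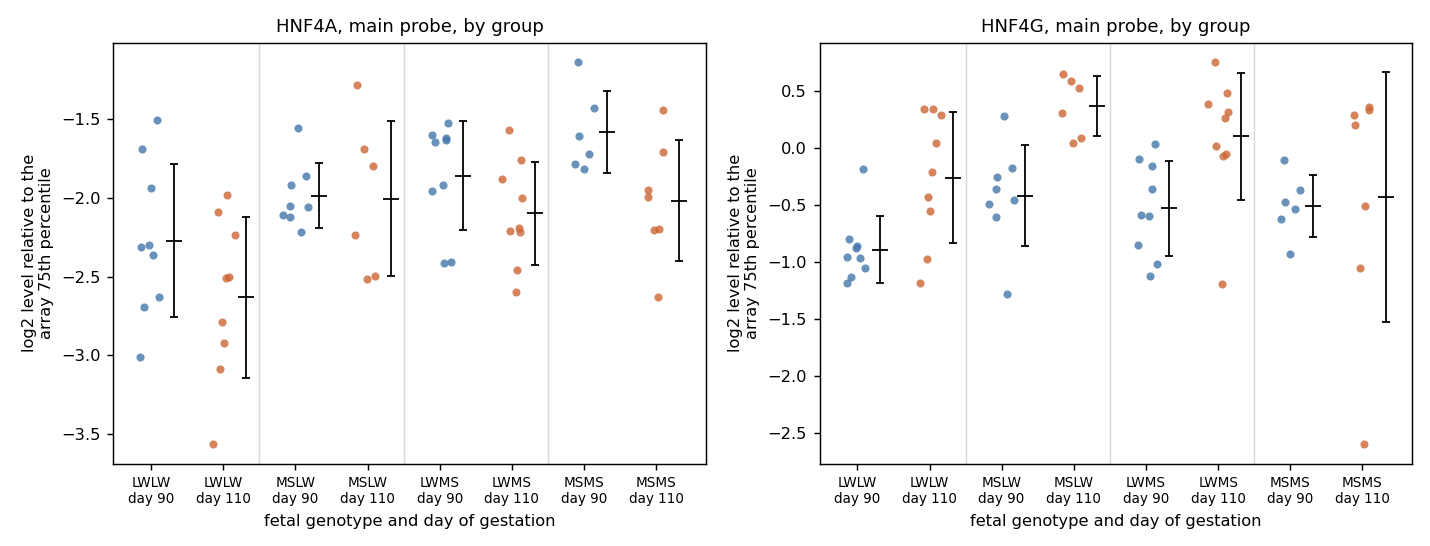
HNF4A (left) and HNF4G (right) log2 level of each fetus on the main probe by genotype and day, with group mean and SD. HNF4A is lowest in LWLW and highest in MSMS at day 90, and HNF4G medians are higher at day 110 in all 4 genotypes, with fetus 632 as the low MSMS point at -2.60.

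KLF4 passed no test for age on any of its 9 probes. On the main probe the group means lay between 1.31 in MSLW at day 90 and 1.94 in MSMS at day 110, and age gave 0.15 (SE 0.074, adjusted p = 0.0926). The 5 probes of the other record, the main one among them, differed by 0.15 to 0.26 with age, none called, and the other 4 correlated with the main probe with r = 0.92 to 0.98. The 3 probes over the last zinc fingers were 0.38 higher at day 110 on each (adjusted p = 0.00123 to 0.00212), under the size limit, and correlated with the main probe with r = 0.51 to 0.61. The probe A_72_P672762 of the other record gave 0.26 with age and correlated with the zinc finger probes with r = 0.65 to 0.73. The difference between the sets of probes was not tested. On the probe over the stop codon the medians went from -0.96 to -0.57 in LWLW, from -0.77 to -0.39 in MSMS, from -0.92 to -0.64 in LWMS and from -0.95 to -0.60 in MSLW. All groups overlapped between the ages.

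By breed of the sow at day 110, 3 KLF4 probes passed, 2 of them only with fetus 632 in the fit. There the 5 probes of the other record gave 0.26 to 0.35, higher in fetuses of MS sows, and 3 passed (0.35, 0.35 and 0.33, adjusted p = 0.0229 to 0.032), while the main probe gave 0.30 (adjusted p = 0.0542). Without fetus 632, 1 of the 3 passed (0.28, adjusted p = 0.048), and the other 2 had adjusted p = 0.05004 and 0.0612. The 3 zinc finger probes gave 0.05 to 0.19, none called. At day 90 the zinc finger probes gave 0.03 to 0.14 and the 5 others at most 0.07, and averaged over the ages 0.04 to 0.17 and 0.16 to 0.18, none called. The test for any difference among groups called the other 4 of these 5 but neither the main probe (adjusted p = 0.0148) nor the zinc finger probes, and without fetus 632 it called none of them (adjusted p = 0.0181 to 0.0271 for the 4).

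KLF5 passed no test on any of its 3 probes. Age gave 0.18 to 0.24 over them (main probe SE 0.11, adjusted p = 0.194). Group means on the main probe lay between 0.59 in LWLW at day 90 and 1.09 in LWLW at day 110. Between purebreds at day 110 the main probe gave -0.15 and the zinc finger probes 0.44 and 0.37, none called. Without fetus 632 these were -0.37, 0.16 and 0.07, none called. The sow gave -0.14 on the main probe against 0.08 and 0.05, and -0.20, 0.01 and -0.03 without that fetus. The residual SD was 0.44 for KLF5 and 0.28 for KLF4, and no step in the order of the means of either gene exceeded it.

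**Figure D4:**
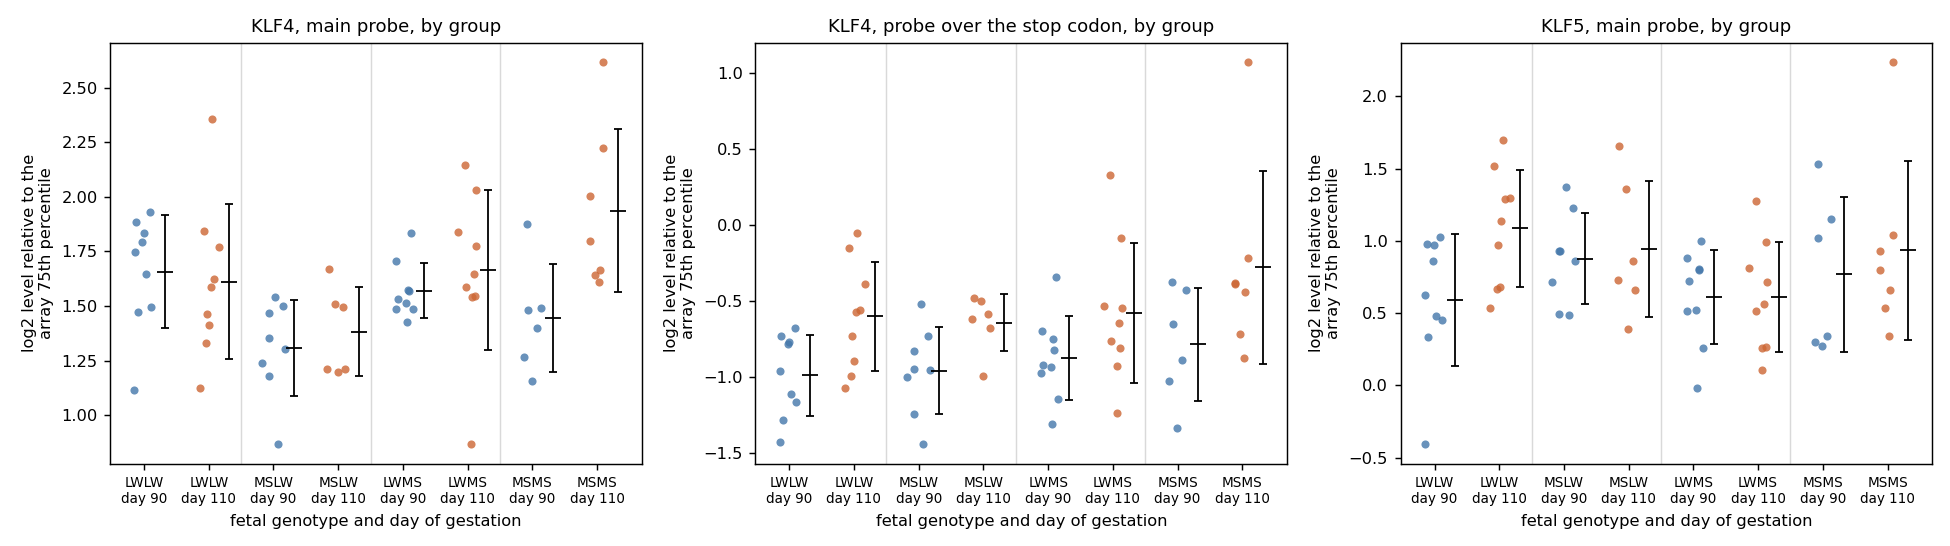
KLF4 on its main probe (left) and on the probe over the stop codon (middle), and KLF5 on its main probe (right), as the log2 level of each fetus by genotype and day, with group mean and SD. The age difference is 0.15 in the left panel and 0.38 in the middle one, and fetus 632 is the highest MSMS day 110 point in each panel, at 2.62, 1.07 and 2.24.

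No member was called for crossbred against purebred fetuses (0.18% of all probes) or for the differences in age change by breed (0.0395%), sow (0.388%) or sire (0%). At an unadjusted p under 0.05 the last called 718 of 40515 probes. Across fetuses the 10 pairs of main probes correlated with r between -0.28 and 0.29, given as a description over 62 or 63 arrays that share groups and slides. Fetus 632, the lowest of all for GATA4 and HNF4G and the highest for KLF4 and KLF5, is among them. The correlations were not computed without it.

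The genes whose main probes ran closest to each member, among 8719 named genes, are given by Pearson's r as a description, with fetus 632 included. For HNF4G they were SLC5A1, the intestinal sodium-glucose cotransporter (r = 0.87), SLC35D1, a nucleotide sugar transporter (0.85), and DOCK8 (0.85). For HNF4A they were TMEM176A (0.66), ACAD11, an acyl-CoA dehydrogenase (0.63), and SLC1A1, a glutamate transporter (0.63). For GATA4 they were NARFL (0.67), FGD6 (0.65) and PPFIA1 (0.59), over 62 arrays. For KLF4 they were TPD52 (0.65), KCNE3, a potassium channel subunit (0.63), and ALDOA, the glycolytic aldolase (0.63). For KLF5 they were KLC1 (0.76), LRRC45 (0.74) and TTC22 (0.72).

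Of 23 enterocyte genes tested, which are known targets or companions of these factors, 9 rose and 2 fell with age, and 12 did not pass. Their median difference was 0.43, against -0.02 over all probes, of which age called 13.8%, 6.07% as rises. APOC3, an apolipoprotein, rose by 3.90 (adjusted p = 1.1e-12), FABP1, the fatty acid binding protein, by 2.55 (adjusted p = 1.77e-19) and ALPI, alkaline phosphatase, by 2.47 (adjusted p = 1.89e-08). SLC5A1 rose by 1.41 (adjusted p = 4.04e-08), and both disaccharidases, SI (1.67) and LCT (1.37), rose as well. The 2 that fell were APOB (-0.996) and ANPEP (-0.59). No enterocyte gene was called for either parent or between purebreds. Of all probes 16% were called for the sow, 6.95% for the sire and 8.03% between purebreds over both ages. Without fetus 632, 12 rose and 1 fell with age, ANPEP (-0.49) being no longer called, and 6 were higher in fetuses of MS sows. Between purebreds over both ages 2 were then higher in MSMS, among them ANPEP (0.75, adjusted p = 0.00332). Over all 40515 probes the calls rose as well, from 5583 to 5896 for age and from 6467 to 8623 for the sow. Between purebreds over both ages they rose from 3254 to 3754.

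Of 21 partner factors, 4 rose and 3 fell with age, with a median of 0.07, in a comparison that called 13.8% of all probes. EHF, an epithelial ETS factor, rose by 2.27 (adjusted p = 2.74e-10) and KLF9 by 1.52 (adjusted p = 2.63e-15). ZFPM2, a cofactor of GATA proteins, fell by 1.06 on the log2 scale (adjusted p = 4.4e-10). ISX, an intestinal homeobox factor, was the 1 partner called between purebreds, higher in MSMS by 1.03 at day 90 (adjusted p = 0.00504) and by 0.85 over both ages. These comparisons called 3.58% and 8.03% of all probes. By breed of the sow 4 partners were higher and 1 lower, with a median of 0.03 against 0.02 over all probes, of which 16% were called. Without fetus 632 there were 4 higher and 2 lower.

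Of 4 goblet cell genes, 3 rose with age, SPDEF by 1.72, CLCA1 by 1.51 and FCGBP by 0.86, and the median was 1.19. Age called 13.8% of all probes. Of 4 ileal genes, 2 fell, CUBN (-0.96) and AMN (-0.62), with a median of -0.79. None of the 4 was well above background on every array at either age. By breed of the sow 1 of the 4 was called, CUBN, lower in fetuses of MS sows by -0.97 (adjusted p = 0.00757). The median of the 4 was 0.15 there, in a comparison that called 16% of all probes. FABP6, the ileal bile acid binding protein, gave -1.54 with age (adjusted p = 0.0327) and 0.50 by sow (adjusted p = 0.601), not calls; without fetus 632 it fell with age (-1.77, adjusted p = 0.00927). Of 10 crypt and cycling genes, 1 fell with age, CCNB1 (-0.54; -0.499 and no call without fetus 632), and LGR5, a crypt stem cell marker, was lower in fetuses of MS sows by -0.46 (adjusted p = 0.0201).

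Markers of other cells moved with age as well, in the comparison that called 13.8% of all probes. Of 7 epithelial markers 1 rose, CLDN3 (0.68), and the median was 0.26. Of 7 mesenchymal markers 2 fell, COL1A1 (-0.81) and COL1A2 (-0.74), with a median of -0.36. Of 7 smooth muscle markers ACTA2 fell (-0.55), and of 6 enteric neuron and glia markers UCHL1 (-0.64) and ELAVL4 (-0.63) did. None of 5 endothelial or 5 leukocyte markers was called. The red cell marker HBB fell (-1.68), and of 4 genes listed for the liver TF (-1.70) and SERPINA1 (-1.17) did. Of 3 genes listed for the pancreas INS rose (4.18), while AMY2 (-0.50) and GCG (-0.87) were no calls and the median was -0.50. Only 2 of the 3 were well above background on every array at day 90, and 1 at day 110. In MSLW at day 90, 1 of the 3 was above it on no array. Which cells of the samples expressed the genes of these liver and pancreas lists was not tested. Between purebreds KDR, an endothelial receptor, was lower in MSMS over both ages (-0.99), and S100B, of glia (0.76), and TF (1.38) were higher. LUM, of the mesenchyme, was lower in MSMS at day 90 (-0.74), while over both ages its -0.39 was no call (adjusted p = 0.0296).

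Without fetus 632 KRT19 (-0.54), DCN (-0.53) and GCG (-1.11) also fell with age, and TTR, of the liver list, rose (0.89). The summed epithelial markers ranged from 7.20 to 8.14 (median 7.62) at day 90 and from 7.41 to 8.35 (median 7.95) at day 110, on the log2 scale. The summed mesenchymal markers ranged from 7.04 to 8.08 (median 7.68) and from 6.34 to 8.43 (median 7.03). By breed of the sow 2 epithelial markers were higher, with a median of 0.08 over the list, in a comparison that called 16% of all probes. The part of these shifts in the rise of HNF4G or the breed differences of HNF4A and GATA4 was not tested.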

How the data were processed

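The deposited scanner files hold spot intensity values from Agilent Feature Extraction 10.10.1.1 per the labels, 1 array per fetus, with 1319 control spots of 61625. The deposited value table holds log2 values of 39446 probes that the authors normalised; they correlated with log2 median spot signals with r of 0.993 or more in each array, and column medians ran from 8.610 to 8.614. Here log2 processed signals were centred on each array's 75th percentile, flagged outlier spots set missing and spots of a probe averaged. Probes well above background on 75% of the arrays of at least 1 group (40515 of 60305) were fitted with limma 3.58.1 (R 4.3.3): 8 group means, lmFit, eBayes and Benjamini-Hochberg adjustment over all tested probes in each comparison. Sow was a random effect in the study's own model but litters are not in the labels, so no sow term was fitted. The 63 arrays lay on 8 slides scanned on 1 day. Slides 1, 2 and 4 held every group and slide 3 all but LWMS at day 90. Slides 5 to 8 each lacked several groups, so differences within those slides can mix age and genotype. No spot was saturated, and the number of arrays limits the precision. Permutation tests used scipy 1.17.1 with 100000 resamples. The procedure was checked on simulated data.

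The members and gene lists were chosen with earlier results of these data known. From each list, the 3 genes with the largest called age change and the 2 with the largest purebred difference called at either day were named, other list genes after their values were seen. Alternatives were the authors' values, normexp (offset 50) with quantile normalisation, median centring, no filter, a filter on all arrays of a group, slide as a block, array weights, other probes of the gene, and leaving out the LWLW fetuses 484 and 469. Added after seeing the data were leaving out fetus 632, keeping outlier spots, the second GATA4 spot and the permutation tests. The array files name no genome build, so no coordinates are given.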

Additional observations from a re-analysis of the deposited data

Results flagged for a closer look

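Among 40 combinations of a gene and a group, 7 had a fetus whose gap to the nearest of the others was a large part of the group's range (past Dixon's critical value; chance flags about 1 in 20). For GATA4 these were MSLW day 90 fetus 450 at -0.93 (next -2.84), 1 of the upper cluster, and MSMS day 110 fetus 632 at -6.70 (next -3.67). For HNF4G they were LWLW day 90 fetus 500 at -0.18 (next -0.80) and LWMS day 110 fetus 609 at -1.19 (next -0.07). For KLF4 it was LWMS day 110 fetus 405 at 0.87 (next 1.54). For KLF5 they were LWLW day 90 fetus 484 at -0.41 (next 0.34) and MSMS day 110 fetus 632 at 2.24 (next 1.04). Fetus 484 had the second lowest correlation with its group (r = 0.945). The main GATA4 value of MSMS day 90 fetus 532 was missing and so not examined.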

How the results depend on the processing

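The count of genes called for age (main 1 of 5) was 0 on the authors' values and 2 with median centring, array weights, 61 fetuses (LWLW 484 and 469 left out) or without MSMS day 110 fetus 632, the 2 being HNF4G and GATA4 each time. With normexp and quantile normalisation it stayed 1 but was GATA4 and not HNF4G. Within LWLW, LWMS and MSLW it was 1 in place of 0 with array weights. Between purebreds it was 1 in place of 0 at day 90 and 2 in place of 1 at day 110 with array weights, and 0 at day 110 without fetus 632. For the sire it was 0 in place of 1 on the authors' values, with normexp and quantile normalisation, median centring, no filter or slide as a block, and 2 with array weights. Array weights raised the calls over all 40515 probes too, for age from 5583 to 6646 and for the sire from 2816 to 6096. Within LWLW, LWMS and MSLW these calls rose from 1928 to 3268, 3996 to 5917 and 2198 to 3601. Between purebreds they rose from 1449 to 2857 at day 90 and from 2024 to 5873 at day 110. Any difference between groups called 1 in place of 3 with median centring. The other 122 alternative counts stayed within 1.5 times the main one. Signs of single differences turned in 21 cases, of which only HNF4A by sire was called on its main probe. HNF4G between purebreds at day 110 turned to 0.45 with array weights and 0.19 without fetus 632, and by sow to 0.0611 with median centring, 0.0820 with array weights and 0.0504 without fetus 632. On the dim GATA4 probe of opposite strand the purebred difference at day 90 was 0.56 and the sire difference 0.0795. On HNF4A A_72_P156906 age gave 0.0543 and the sire -0.13. For KLF4 on A_72_P021111, A_72_P303164, A_72_P538303 and O8718 the purebred difference at day 90 was 0.0777, 0.205, 0.157 and 0.0787, and the sire difference 0.0937, 0.0953, 0.177 and 0.0843. For KLF5 on A_72_P010081 and O11110 the purebred difference at day 110 was 0.44 and 0.37, and the sow difference 0.0834 and 0.0489. The cause was not tested. No paired analysis was possible because each fetus number is unique to 1 group. Dim probes, above all the GATA4 and HNF4A probes of opposite strand to the main ones, limit what can be compared.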

Other observations

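Other probes that read the members' transcripts under another name were not counted. Of 5 such probes 1 repeats the main GATA4 probe and 1 the KLF4 probe over the stop codon; the latter gave 0.41 with age (adjusted p = 0.000252) beside 0.38 for its twin.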
